A study of Mus musculus with 4 samples.

Results

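Guanylate-binding proteins (GBPs) and immunity-related GTPases (IRGs) are interferon-inducible GTPases, and 8 of their genes are described here in stimulated mouse CD4 T cells. The genes are Gbp2, Gbp3, Gbp4, Gbp5, Gbp7, Igtp, Irgm1 and Iigp1. They were taken by symbol from the 32285 genes of the deposited count files. They were followed in cells with at least 2000 UMIs (unique molecular identifiers, 1 per captured transcript molecule), at least 500 detected genes and at most 10% mitochondrial UMIs. A total of 19100 cells in 4 libraries met those limits.

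The cells came from the spleens of C57BL6/J mice and were sorted by flow cytometry for the surface proteins CD3 and CD4. Beads coated with anti-CD3 and anti-CD28 stimulated the cells of all 4 libraries for 6 hours, so no unstimulated library stands beside them. A female and a male library were labelled Irf5-/-, a knockout of the transcription factor interferon regulatory factor 5, and a female and a male library were labelled WT. The ages, the Irf5 allele and the number of mice behind a library were not given in the sources used here. The p-values between genotype labels therefore measure the spread between 4 libraries, which may be in part technical. Those between kinds of cells measure the spread of differences within the same 4 libraries.

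Interferon gamma signals through JAK kinases to factors that bind GAS elements, and it raises IRF1. IRF1 and the factors that type I interferon activates bind the ISRE element. GBPs assemble on vacuoles and on bacteria in the cytosol, and IRGs act at the membrane of the vacuole around intracellular parasites. In T cells, IRG proteins such as Irgm1 are also known for a part in the survival of activated cells.

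Sequences upstream of the RefSeq starts of the genes are shown first. Irf1 and the interferon responses are usually linked to this family by 2 kinds of element, ISRE and GAS. The letters of both were searched for there. Windows of 250 bases before the RefSeq start (GRCm38.p6) were available for 6 of the 8 members: Gbp2, Gbp3, Gbp5, Gbp7, Igtp and Irgm1. Each was searched on both strands for an ISRE-like match, the letters GAAA repeated after a gap of any 2 bases, and for the GAS-like letters TTCNNNGAA. Capitals mark the matched letters in the 30-base stretches below, read 5′ to 3′ on the strand of the gene.
Gbp2, chr3:142620599-142620628, plus strand: tttagTTTCACTTTCactgtcttaagcata
Gbp3, chr3:142559994-142560023, plus strand: cacagTTTCAGTTTCTATTTCccagatccc
Gbp5, chr3:142496764-142496793, plus strand: tgtagTTTCAATTTCagtttagagaaccct
Gbp7, chr3:142530229-142530258, plus strand: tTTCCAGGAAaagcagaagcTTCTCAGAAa
Gbp7, chr3:142530278-142530307, plus strand: tgcagTTTCAGTTTCagttctccatcccca
Igtp, chr11:58199506-58199535, plus strand: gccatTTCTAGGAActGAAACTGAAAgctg
Irgm1, chr11:48871426-48871455, minus strand: ttcaaGAAATAGAAACCGAAActgattctc
Irgm2, chr11:58214897-58214926, plus strand: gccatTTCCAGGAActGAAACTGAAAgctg
Tgtp1, chr11:48992310-48992339, minus strand: gccatTTCCAGGAAtcGAAACTGAAAccta

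All 6 members with a window held at least 1 ISRE-like match, against 2.98% of 32851 windows of the same length on the chromosomes searched. In the GBP genes the match lies on the opposite strand, so it reads as TTTC repeated, and Gbp3 and Irgm1 each hold 2 overlapping matches. GAS-like letters occur in 7.02% of windows and were found in Gbp5 (2 matches), Gbp7 (2 matches) and Igtp (1 match). Both motifs occur together in 0.332% of windows. Igtp and the IRG genes Irgm2, Tgtp1 and Tgtp2, which are not members, hold the 2 motifs in the same order with a gap of 2 bases. The window of Irf1 holds a GAS-like match and no ISRE-like match (chr11:53769919-53769948, plus strand, ctgatTTCCCCGAAatgatgaggccgagtg), and the window of Ifit3 holds 2 ISRE-like matches. A match is a run of letters and not a measured binding site.

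In GENCODE M21 (GRCm38), Gbp5, Gbp7, Gbp3 and Gbp2 lie in this order on the plus strand of chromosome 3, from position 142493978 to position 142638008. Gbp4 lies on the minus strand of chromosome 5 (105115767 to 105139586), where 23774 bases of its span are shared with Gbp8 and 23773 with Gbp9. Igtp (58199556 to 58207591) and Irgm1 (48861968 to 48871683) lie on chromosome 11, and 7974 bases of Igtp are shared with Irgm2 on the same strand. The counting could split or drop UMIs of overlapping genes, so the counts of Gbp4 and Igtp are uncertain in this respect. The RefSeq starts used for the windows are not always the starts of the GENCODE spans. The stretches shown above for Gbp5, Irgm1, Irgm2 and Tgtp1 lie within the GENCODE span of the gene. That of Gbp2 runs across the start of its span.

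The libraries held 28841161 to 55850754 UMIs and 1814 to 6543 kept cells, with medians of 5104.5 to 9661 UMIs per cell. The female library labelled WT had the fewest cells, and 36.2% of its UMIs lay in droplets with under 200 UMIs, against 8.62% to 14.7% in the others. Pairs of libraries shared 2 to 14 cell barcodes. T cell markers summed to 2798 to 3205 CPM (counts scaled to a common total of UMIs), with 9 of 9 detected in every library, and 97.9% to 99.5% of cells held a UMI of Cd3d, Cd3e, Cd3g or Trac. B cell markers summed to 46.8 to 208 CPM and myeloid markers to 38.4 to 98.8 CPM. Haemoglobin and other red-cell genes reached 1419 CPM in the female library labelled WT and at most 43.3 CPM in the others.

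Cells were sorted into 3 kinds by UMIs after each had been thinned to 2000 UMIs. Resting cells had no UMI of 16 activation genes (among them Egr1, Egr3, Nr4a1, Myc, Il2 and Il12rb2) and at least 1 UMI from a short list of genes of circulating unstimulated T cells, among them Klf2 and S1pr1. Egr3-high cells had at least 2 UMIs of Egr3, an early gene of antigen-receptor signalling, and none of Il12rb2. Il12rb2-positive cells had at least 1 UMI of Il12rb2, the inducible chain of the interleukin-12 receptor, and were not Egr3-high. The libraries held 308 to 1209 resting, 67 to 206 Egr3-high and 84 to 321 Il12rb2-positive cells, and the remaining 1352 to 4893 cells are called other cells. The 15 cells that met both rules were left apart. Near the limits, 981 cells had 1 Egr3 UMI, 292 had 2 and 331 had more, and 638 cells had 1 Il12rb2 UMI while 108 had more. None of the 8 GTPases, Irf1 or Ifit3 took part in the rules.

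Markers of B, myeloid, natural killer, CD8 and gamma-delta T cells were low in the resting, Il12rb2-positive and Egr3-high classes beside the T cell markers, and those of regulatory T cells differed between classes. The 9 B cell markers summed to 51.5 to 85.6 CPM in resting, 32.1 to 162 CPM in Il12rb2-positive and 40.2 to 93.1 CPM in Egr3-high cells, with 2 to 7 of them detected in a library. The 12 myeloid markers summed to 44.0 to 62.6, 34.1 to 231 and 28.2 to 38.5 CPM, with 1 to 6 detected and Adgre1 at 0 in all. The 8 natural killer cell markers summed to 10.4 to 17.2, 7.30 to 19.8 and 1.53 to 6.42 CPM, and the 4 markers of CD8 and gamma-delta T cells to 23.6 to 51.8, 13.3 to 36.5 and 5.89 to 26.7 CPM. Markers of regulatory T cells summed to 164 to 281 CPM in resting, 526 to 630 CPM in Il12rb2-positive and 349.9 to 412 CPM in Egr3-high cells. In other cells the sums were 437 to 602 CPM for regulatory T cells, 45.2 to 237 CPM for B cells, 37.1 to 108 CPM for myeloid, 3.97 to 9.35 CPM for natural killer and 11.6 to 18.4 CPM for CD8 and gamma-delta T cells. Red-cell genes summed there to 1740 CPM in the female library labelled WT and to 15.1 to 49.7 CPM in the others, against at most 29.2 CPM in the remaining classes. In the fits without that library all 8 members were called in each contrast with other cells, in the directions given further on. The part of red-cell genes and of the other markers in the class differences was not tested.

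As a share of a class's RNA, the summed GTPase level had its highest mean in resting cells and its lowest in other cells, and the genes differed in where Egr3-high cells stood. Summed over the 8 genes, the level was 6137 ± 573 CPM (SD, n = 4 libraries) in resting, 5372 ± 742 CPM in Egr3-high, 4011 ± 553 CPM in Il12rb2-positive and 1787 ± 310 CPM in other cells. Counted as UMIs per cell, the order of resting and Egr3-high cells turned: the sum was 31.4 ± 6.19 in resting, 35.7 ± 6.49 in Egr3-high, 29.3 ± 7.46 in Il12rb2-positive and 15.2 ± 2.84 in other cells, and Egr3-high cells held more than resting cells in each of the 4 libraries. In CPM, resting and Egr3-high levels overlap between libraries, and every library's level in other cells lies under all levels of the remaining classes. The same sum in droplets with under 200 UMIs was 1873 ± 301 CPM, close to the level of other cells. How much of the count in other cells came from free RNA was not tested. The median mitochondrial share of a cell's UMIs was 4.51% to 4.83% over the libraries in resting cells, 3.71% to 3.86% in Egr3-high, 3.56% to 3.82% in Il12rb2-positive and 3.64% to 3.72% in other cells, and its part in the class differences was not tested.

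Cells within a class varied more than counting alone gives. In cells thinned to 2000 UMIs, the median was 12.2 GTPase UMIs in resting, 10.5 in Egr3-high, 7.12 in Il12rb2-positive and 1.75 in other cells, as means of the library medians. No GTPase UMI was found in 2.92% of resting, 4.92% of Egr3-high, 11.9% of Il12rb2-positive and 34.1% of other cells. The variance of the summed UMIs was 4.14 times its mean in resting cells, 5.60 times in Egr3-high, 7.64 times in Il12rb2-positive and 8.79 times in other cells.

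**Figure D1:**
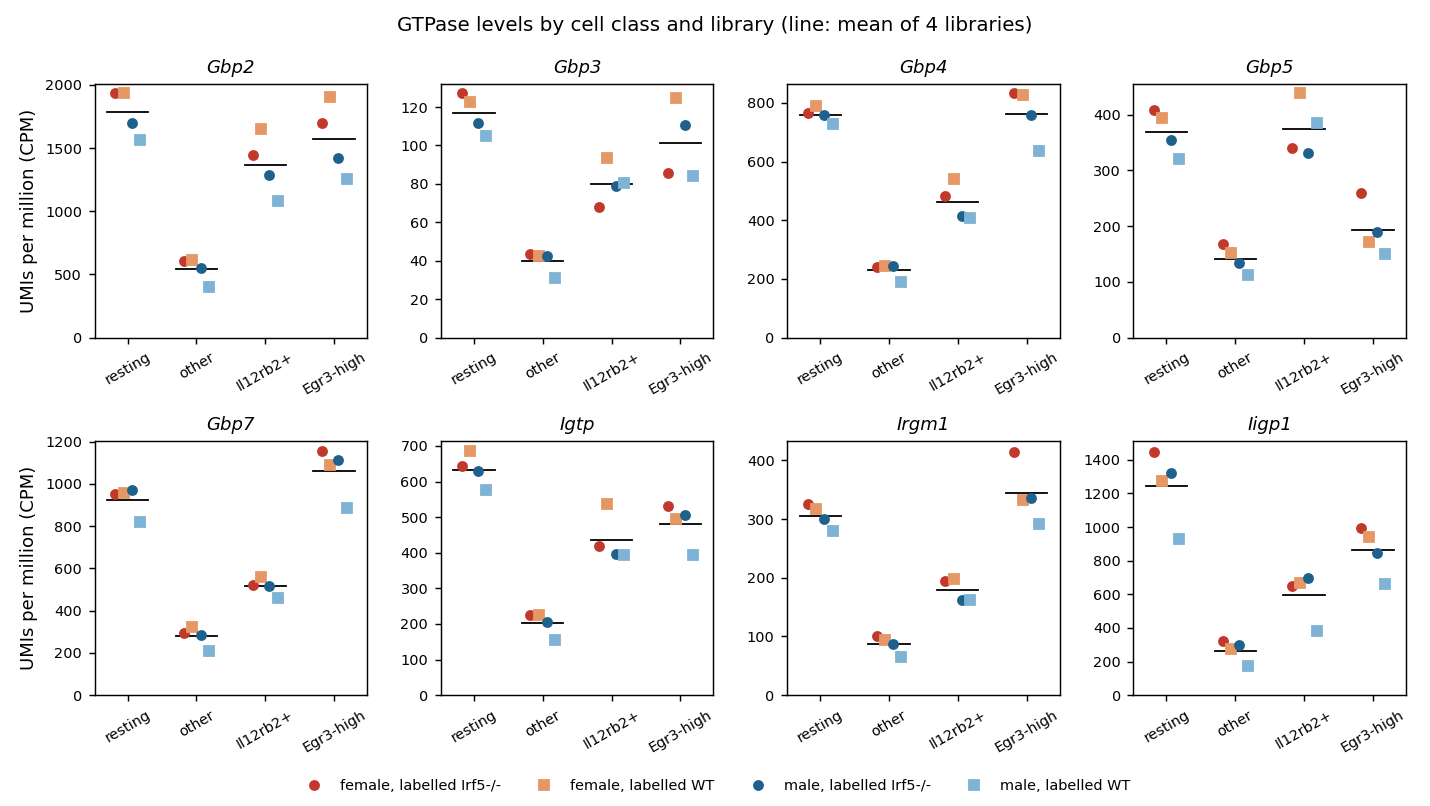
Level of each of the 8 genes in CPM (vertical axes from 0) in 4 cell classes, with 1 point per library and a line at the mean of the 4 libraries. Other cells are lowest for every gene, and Gbp5 is at 192 CPM in Egr3-high cells against 370 CPM in resting and 374 CPM in Il12rb2-positive cells.

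Gbp2, a GBP that is lipid-modified and recruited to membranes, gave the most UMIs of the family (3′ counts are not scaled by length, so levels are not compared between genes otherwise). Its level in resting cells was 1934, 1933, 1695 and 1566 CPM in the female library labelled Irf5-/-, the female labelled WT, the male labelled Irf5-/- and the male labelled WT, the order kept in what follows. In Il12rb2-positive cells it was 1443, 1650.0, 1286 and 1082 CPM, and in Egr3-high cells 1696, 1903, 1422 and 1253 CPM. The male library labelled WT is lowest in each class, and the ranges of the 3 classes overlap. In other cells the level was 402 to 613 CPM, under all 12 of those values.

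Gbp7, a GBP of the chromosome 3 cluster linked to antibacterial defence, was highest in Egr3-high cells. It stood at 952, 957, 972 and 820.2 CPM in resting cells, at 519, 561, 518 and 461 CPM in Il12rb2-positive cells, and at 1154, 1088, 1112 and 884 CPM in Egr3-high cells. Within each library the Egr3-high value is the highest and the Il12rb2-positive value the lowest of the 3. Irgm1, a regulatory IRG that keeps the effector IRGs in check, followed the same order. Its levels were 326, 317, 300.2 and 280.0 CPM in resting, 195, 197, 162 and 163 CPM in Il12rb2-positive and 415, 332, 336 and 292 CPM in Egr3-high cells. No Il12rb2-positive value of Irgm1 reaches a value of the other 2 classes.

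Gbp5, known for its link to inflammasome activation, had its own pattern. Its level was 409, 394, 356 and 320.1 CPM in resting and 340.2, 439.5, 332 and 385 CPM in Il12rb2-positive cells, 2 ranges that overlap. In Egr3-high cells it was 259, 171, 190.2 and 149.7 CPM, under every resting and Il12rb2-positive value. Gbp5 accordingly made up 6.02% of the summed GTPase UMIs in resting, 9.41% in Il12rb2-positive and 3.57% in Egr3-high cells. Gbp7 took the opposite shares, 15.1%, 12.9% and 19.8%.

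Iigp1, an effector IRG that disrupts parasite vacuoles, was highest in resting cells in every library. Resting cells held 1447, 1272, 1324 and 932 CPM, Il12rb2-positive cells 648, 669, 695 and 384 CPM, and Egr3-high cells 992, 943, 847 and 664 CPM. The male library labelled WT stands below the rest in all 3 classes, and its resting value lies within the Egr3-high range. Igtp, a regulatory IRG also named Irgm3, held 575 to 686 CPM in resting, 395 to 536 CPM in Il12rb2-positive and 394 to 532 CPM in Egr3-high cells. Gbp4 held 728 to 789, 407 to 542 and 638 to 833 CPM in these classes, and Gbp3, the rarest in UMIs, 105 to 127, 68.2 to 93.5 and 84.1 to 125 CPM.

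Differences between classes were tested within libraries with edgeR's quasi-likelihood test on summed UMIs, with library as a block and p-values adjusted over all genes by the Benjamini-Hochberg method. An adjusted p under 0.05 counted as a call, and all 8 members passed the filter on low counts. The classes differ in many genes, so each count of members is given with the share of all tested genes called in that direction. Fold changes are relative to the other RNA of the same cells, since resting cells hold fewer UMIs (library medians of 3301 to 6110) than other cells (5676 to 10752.5). Of the genes called in the 3 contrasts below, 49.3%, 48.0% and 55.2% were higher, and counted per cell 80.1%, 65.9% and 21.5%. With library size only in place of TMM factors, the third share was 32.8%.

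In Il12rb2-positive against resting cells, 7 of 8 members were lower and none was higher, beside 33.5% of 8208 tested genes that were lower. The median log2 fold change was -0.71 over the members and -0.04 over all tested genes. Iigp1 fell by 1.11 ± 0.06 (SE, adjusted p = 9.64e-18) and Gbp7 fell by 0.91 ± 0.05 (adjusted p = 1.37e-16). Gbp2 had the smallest called difference, -0.45 ± 0.05 (adjusted p = 1.01e-09). Gbp5 did not pass the test (-0.06 ± 0.08, adjusted p = 0.555). Counted per cell, Gbp2 was at 0.11 (adjusted p = 0.0553), Gbp5 was higher at 0.51 (adjusted p = 5.75e-06), and 4 members stayed called lower. Of the 8208 genes, 1171 were then called lower and 4702 higher, and the median of all genes moved to 0.53.

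In Egr3-high against resting cells, 2 members rose, 3 fell and 3 did not pass the test. Of the 8208 genes, 32.4% were called higher and 35.1% lower, so the counts of members do not stand apart from the background. Gbp7 rose by 0.29 ± 0.05 (adjusted p = 6.61e-06) and Irgm1 by 0.26 ± 0.07 (adjusted p = 8.78e-04). Gbp5 fell by 0.83 ± 0.09 (adjusted p = 2.28e-09), Iigp1 by 0.44 ± 0.06 (adjusted p = 5.20e-08) and Igtp by 0.30 ± 0.06 (adjusted p = 1.65e-04). Gbp2, Gbp3 and Gbp4 stood at -0.11, -0.13 and 0.09. The 2 rises depend on the Egr3 limit: with Egr3-high set at 1 UMI, Gbp7 stood at -0.26 and Irgm1 at -0.41 (adjusted p = 9.54e-05 and 2.44e-06), and with classes set from all UMIs of a cell they stood at -0.40 and -0.57. Counted per cell, 4 members were called higher and 2 lower, beside 3614 and 1867 of the 8208 genes.

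Egr3-high and Il12rb2-positive cells differed from each other in all 8 members. In Egr3-high against Il12rb2-positive cells, 7 members were higher, beside 16.8% of genes, and Gbp5 was lower, beside 13.6% of genes. The median log2 fold change was 0.59 over the members and -0.03 over all genes. Gbp7 differed by 1.20 ± 0.06 (adjusted p = 1.63e-18), Irgm1 by 1.11 ± 0.08 (adjusted p = 1.87e-13) and Gbp4 by 0.88 ± 0.07 (adjusted p = 5.75e-13). Iigp1, Gbp3, Gbp2 and Igtp differed by 0.68, 0.50, 0.34 and 0.32, and Gbp5 by -0.77 ± 0.10 (adjusted p = 2.14e-07). With Egr3-high at 1 UMI, Gbp2 and Igtp turned to -0.20 and -0.21 and Gbp3 and Iigp1 to -0.08 and -0.03, while Gbp7, Irgm1, Gbp4 and Gbp5 kept their sign at 0.65, 0.44, 0.35 and -1.18. Counted per cell, 4 members were higher and Gbp5 lower, beside 740 and 2698 of 8208 genes.

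**Figure D2:**
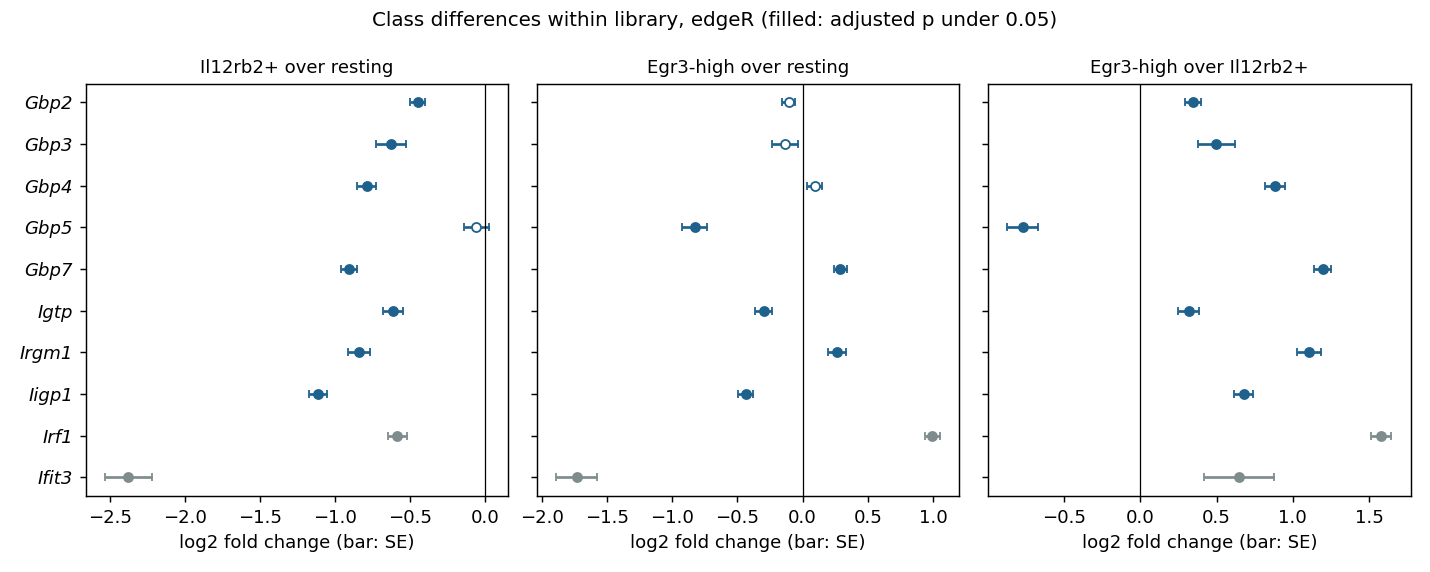
Log2 fold changes (horizontal axis, bars are SE) of the 8 GTPases in blue and of Irf1 and Ifit3 in grey for 3 contrasts within library; filled points have an adjusted p under 0.05. Gbp5 lies apart from the other 7 GTPases in each panel, and Irf1 moves up in Egr3-high cells while Ifit3 lies far below 0 against resting cells.

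Other cells were then set against the 3 classes in a fit added after the levels had been seen. Against resting cells all 8 members were lower, beside 42.0% of 8669 genes, with log2 fold changes from -1.35 (Gbp5) to -2.20 (Iigp1). Counted per cell, all 8 were still lower, beside 1751 of the 8669 genes. The shares of called genes that were higher, 49.5%, 52.6% and 51.4% against resting, for Egr3-high and for Il12rb2-positive cells, became 76.7%, 16.3% and 18.6% per cell; the second became 40.3% with library size only. Against the same other cells, all 8 were higher in Egr3-high cells, from 0.59 (Gbp5) to 2.13 (Irgm1), beside 25.6% of genes. All 8 were also higher in Il12rb2-positive cells, from 0.86 (Gbp7) to 1.35 (Gbp5), beside 13.8% of genes. Gbp5 thus had the smallest difference of the family in Egr3-high cells and the highest in Il12rb2-positive cells. The Gbp5 difference in Egr3-high cells was 0.11 (adjusted p = 0.328) when counted per cell.

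Sorting cells by the number of UMIs of the 16 activation genes gave a summed level that fell and then rose. The lowest bin is the resting class, and the 681 cells with no activation UMI and no resting gene are in no bin. The summed GTPase level was 6137 CPM in resting cells, 3070 ± 516 CPM in cells with 1 activation UMI, 1580 ± 375 CPM with 2 to 3, 1400 ± 295 CPM with 4 to 7, 1916 ± 310 CPM with 8 to 15 and 3693 ± 576 CPM with 16 or more (SD, n = 4). Gbp7 rose from 197 ± 41 CPM at 4 to 7 UMIs to 799 ± 118 CPM at 16 or more, and Irgm1 from 64.3 ± 15.8 to 212 ± 33 CPM. Gbp5 did not come back up: it stood at 370 CPM in resting cells, 136 ± 24 CPM at 4 to 7 UMIs and 137 ± 24 CPM at 16 or more. Irf1 stood at 412, 139 and 469 CPM at those 3 points, ending above its resting mean, which the summed GTPase level did not. Ifit3 stood at 119, 3.82 and 23.0 CPM. The cells are from a single time, so the order is one of activation UMIs and not of hours.

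**Figure D3:**
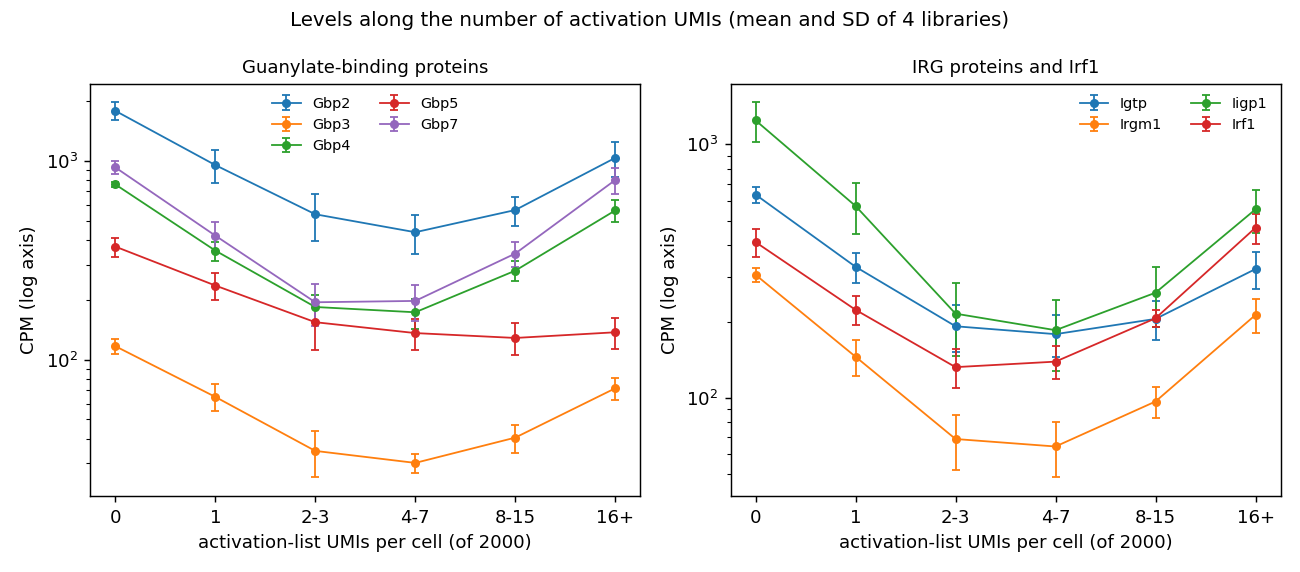
Level in CPM (log axis, mean and SD of 4 libraries) against the number of activation-list UMIs in a cell thinned to 2000 UMIs, with resting cells at 0. Levels fall from 0 to 2 or 3 UMIs; at 16 or more Gbp7 is back at 799 CPM and Gbp5 at 137 CPM, and the mean of Irf1 (469 CPM) is above its resting mean (412 CPM).

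Irf1, the transcription factor named above, was higher in Egr3-high and lower in Il12rb2-positive than in resting cells, while Ifit3 was lower in both. Irf1 held 352 to 474 CPM in resting, 245 to 322 CPM in Il12rb2-positive and 679.6 to 800.5 CPM in Egr3-high cells, 3 ranges with no overlap. Its log2 fold change was 1.00 ± 0.06 in Egr3-high and -0.58 ± 0.06 in Il12rb2-positive against resting cells (adjusted p = 1.24e-16 and 8.56e-10). Ifit3, a gene of the type I interferon response, was at -1.73 ± 0.16 and -2.38 ± 0.16 against resting cells.

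Cells were then split by whether their 2000 UMIs held Irf1 or Ifit3, and the effect of each was fitted at a fixed status of the other. In resting cells without either UMI the GTPase sum was 4846 ± 509 CPM. It was 6858 ± 450.2 CPM with Irf1 alone, 7006 ± 621 CPM with Ifit3 alone and 7936 ± 766 CPM with both. In cells that were not resting the spread was wider, with 1283 ± 202 CPM for neither, 3776 ± 536 CPM for Irf1 alone, 5418 ± 469 CPM for Ifit3 alone (n = 3 libraries with at least 20 such cells) and 8099 ± 565 CPM for both. In each library the cells with both UMIs were highest and those with neither lowest, in resting and in the remaining cells alike.

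**Figure D4:**
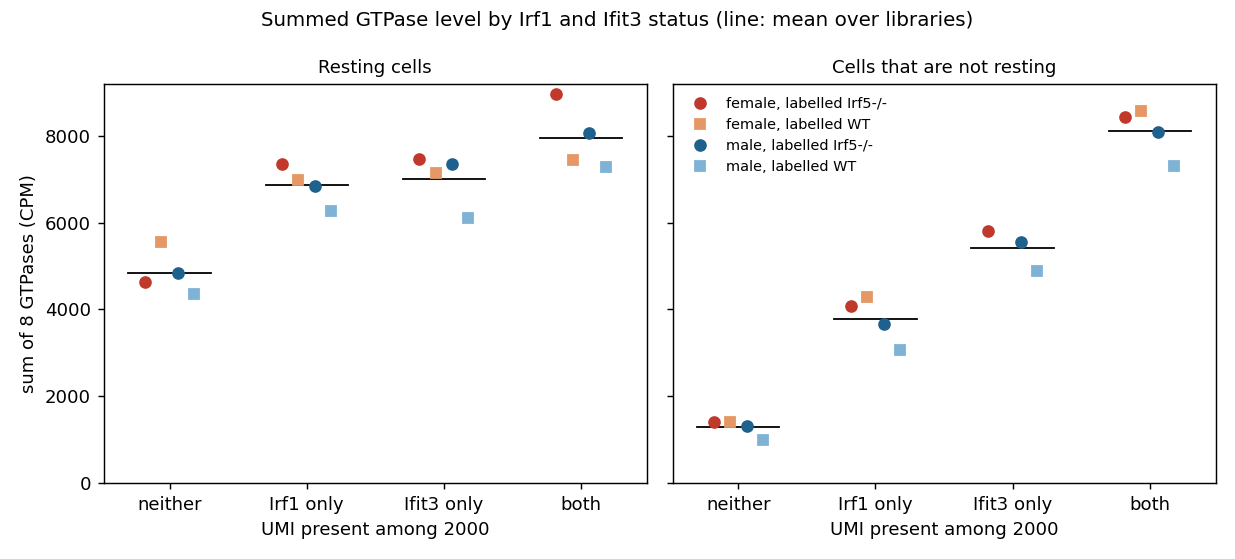
Summed level of the 8 GTPases in CPM (vertical axis from 0) in cells grouped by Irf1 and Ifit3 UMIs, with 1 point per library and a line at their mean; the female library labelled WT had under 20 non-resting cells with Ifit3 alone and has no point there. The sum is lowest with neither UMI and highest with both, 1283 against 8099 CPM in cells that were not resting.

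All 8 members were higher in Irf1-positive than in Irf1-negative resting cells, beside 3.06% of 6769 genes called higher. The log2 fold changes ran from 0.35 ± 0.06 (Gbp7, adjusted p = 7.91e-06) to 0.47 ± 0.07 (Gbp5, adjusted p = 1.63e-06). Ifit3-positive resting cells had 6 members higher, beside 4.48% of genes. The largest was Iigp1 at 0.52 ± 0.05 (adjusted p = 7.52e-12), followed by Gbp7 at 0.50 ± 0.06. Gbp3 (0.26, adjusted p = 0.124) and Gbp5 (0.16, adjusted p = 0.189) did not pass the test. Klf2, which marks resting cells, had a log2 fold change of 0.01 with Irf1 in resting cells.

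In cells that were not resting, all 8 members were higher with Irf1, beside 22.5% of 10082 genes, and all 8 with Ifit3, beside 22.9%. With Irf1 the log2 fold changes ran from 1.11 (Gbp2) to 1.48 (Irgm1), and with Ifit3 from 1.15 (Gbp5) to 1.93 (Iigp1). Each is taken over both states of the other gene, although the sums above differed in their steps between these states. Klf2 moved too: it averaged 110.0 CPM in cells with neither UMI, 199.7 CPM with Irf1 alone and 568 CPM with Ifit3 alone. Cells with Ifit3 alone had a median of 1 activation UMI, against 4.75 with neither. Among cells with 1 activation UMI alone, the GTPase sum averaged 7704 CPM with Ifit3 and 2598 CPM without, over 3 libraries. The part of Klf2-rich cells within such a bin was not tested.

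Within bins of activation UMIs, cells with Irf1 and cells with Ifit3 both had the higher GTPase sum. This held in every library and bin with at least 20 cells of each kind. The bins above 1 activation UMI span a range of numbers, and differences in activation within them were not tested. The sum was 1.22 to 1.52 times as high with Irf1 as without in resting cells, and 2.18 to 3.37 times as high over the other 5 bins, in 4 of 4 libraries each time. With Ifit3 it was 1.16 to 1.41 times as high in resting cells (4 libraries), 2.85 to 3.16 times at 1 activation UMI (3 libraries) and 3.73 to 4.49 times at 2 to 3 (2 libraries). Each of the 3 bins above held 1 library with enough Ifit3-positive cells, at 3.49, 3.36 and 2.44 times. The level also followed the number of Irf1 UMIs. In other cells it was 1243 ± 203 CPM with no Irf1 UMI, 3038 ± 397 CPM with 1 and 4925 ± 506 CPM with 2 or more. Across single cells, the correlation of the GTPase sum with Irf1 averaged 0.25 in resting, 0.42 in other, 0.35 in Il12rb2-positive and 0.46 in Egr3-high cells. With Ifit3 the averages were 0.17, 0.26, 0.27 and 0.15. These are descriptions over 67 to 4893 cells of a library that share their library and the same 2000 UMIs.

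The genes with a profile most like the GTPase sum, over 16 sums of 4 classes and 4 libraries, were ranked by Pearson correlation among 4547 genes with at least 10 UMIs in every sum. The first 8 were Ifi47 (0.99), Gbp6 (0.99), Gimap4 (0.99), Gimap8 (0.98), Gbp8 (0.97), Irgm2 (0.97), 5830468F06Rik (0.97) and Pml (0.97). Ifi47 is itself an IRG, and Gbp6, Gbp8 and Irgm2 belong to the same GTPase families. Gimap4 and Gimap8 belong to another GTPase family, of lymphocytes, and Pml encodes the organizer of nuclear bodies. Irf1 ranked 206 (0.85). The sums share libraries, so these are descriptions.

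Further immunity GTPases were taken from a list of 19 symbols, of which 14 are in the files and 11 were tested across the classes. Against resting cells, 11 of 11 were lower in Il12rb2-positive cells, beside 7 of 8 members and 33.5% of all genes tested. Among them were Tgtp1 (-0.87 ± 0.08), Tgtp2 (-0.95 ± 0.09), Gbp6 (-0.68 ± 0.07), Gbp8 (-0.95 ± 0.10), Gbp9 (-0.82 ± 0.09), Gbp10 (-0.93 ± 0.14) and Irgm2 (-0.42 ± 0.09). In Egr3-high against resting cells 4 were higher: Tgtp1 (0.43 ± 0.08), Irgm2 (0.25 ± 0.09), Gbp9 (0.24 ± 0.09) and Tgtp2 (0.21 ± 0.08). Another 4 were lower: 9930111J21Rik2 (-1.92 ± 0.11), 9930111J21Rik1 (-1.69 ± 0.34), Gm4951 (-0.88 ± 0.29) and Gbp10 (-0.70 ± 0.15). Gbp6, Gbp8 and Gvin1 stood between -0.01 and 0.01. These shares lie near those of all genes, 32.4% higher and 35.1% lower.

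Of 27 tested genes of the interferon gamma pathway, 17 were lower and 7 higher in Il12rb2-positive cells, and 9 lower and 14 higher in Egr3-high cells, each against resting cells. Ifng, which is in the class rule, was left out of these counts. Over all 8208 genes 33.5% were lower and 2679 genes higher in the first contrast, and 35.1% were lower and 32.4% higher in the second. The 9 lower genes of the second contrast are near the background, and the share of 7 higher genes in the first lies under it. Psmb8 and Psmb10, subunits of the immunoproteasome, fell by 1.23 ± 0.06 and 1.48 ± 0.09 in Il12rb2-positive cells. Cd274, which encodes the inhibitory ligand PD-L1, rose by 2.09 ± 0.07 in Egr3-high cells, and Irf8, a partner factor of Irf1, by 3.52 ± 0.07. Socs1, the feedback inhibitor of JAK kinases, was higher by 1.57 ± 0.07 in Egr3-high than in Il12rb2-positive cells. Of 37 tested type I response genes, 36 were lower in Il12rb2-positive cells, with a median of -1.54. In Egr3-high cells 21 were lower and 4 higher, with a median of -0.36, beside the same shares of all genes. Isg20, an exonuclease against viral RNA, was among those higher (1.96 ± 0.13). The medians of the members in the same contrasts were -0.71 and -0.12.

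Cells with a UMI of a lineage or cytokine gene among their 2000 were compared as descriptions. The GTPase sum was 3506 ± 164 CPM in cells with Foxp3, the factor of regulatory T cells, and 3960 ± 694 CPM in cells with Tbx21, the factor of type 1 helper cells. It was 873 ± 151 CPM in cells with Il2, 808 ± 207 CPM with Ifng and 870 ± 199 CPM with Ccl4, 3 secreted products of activated cells. Cells with Zbtb16, a factor of innate-like T cells, held 839 ± 360 CPM. Il2, Ifng and Ccl4 are in the class rule, so no cell with a UMI of them could be resting, the class with the highest mean GTPase sum in CPM, though not per cell. Of the cells with Foxp3 13.0% to 14.9% were resting, and of those with Tbx21 0.781% to 4.18%. How much of the gap between these groups of cells the rule sets was not tested.

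The genotype labels were checked by Irf5 first. Irf5 held 8.57 and 9.07 CPM in the female and male libraries labelled Irf5-/- and 0.936 and 1.18 CPM in those labelled WT, a log2 fold change of 2.94 ± 0.18 (edgeR, adjusted p = 6.00e-07). This goes against the labels as a loss of RNA. The deleted part of the gene is not given, and 3′ counts outside it would check nothing. In droplets with under 200 UMIs, Irf5 held 13.6 and 14.3 CPM in the female and male libraries labelled Irf5-/-. In those labelled WT it held 2.30 and 1.71 CPM there. B cell markers in kept cells summed to 208 and 111 CPM against 46.8 and 53.2 CPM in the same order. The part of free RNA and of other cell types in the Irf5 counts was not tested. An exchange of the genotype labels and a deletion that leaves the counted 3′ end in place cannot be told apart here, and an exchange would turn every genotype direction below. Directions are therefore those of the libraries so labelled.

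No member was called between the genotype labels in the 4 sets of cells fitted, and other cells were not fitted apart. In all kept cells the count was 0 of 8 members, beside 1.21% of 12855 genes, and it was 0 in resting cells (beside 0.0398% of 10038 genes), in Il12rb2-positive cells (beside 0.694% of 7492) and in Egr3-high cells (beside 0.0895% of 6705). At an unadjusted p under 0.05 stood 1, 1, 3 and 1 members in that order, beside 1029, 341, 571 and 335 of all genes tested there, and DESeq2 called 0 members in each. The fold changes in all kept cells ran from 0.05 ± 0.09 (Gbp4) to 0.36 ± 0.10 (Iigp1, adjusted p = 0.176). Ifit3 was called, at 0.86 ± 0.08 (adjusted p = 1.01e-04).

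Iigp1 held 478 and 448 CPM in the female and male libraries labelled Irf5-/- and 425 and 281 CPM in those labelled WT. The male library labelled WT stands apart, and the difference was 0.13 between the female and 0.58 between the male libraries, as log2 CPM after TMM scaling, which differs from the ratio of the plain CPM values. Without the female library labelled WT and with no sex term, Iigp1 was called higher in all kept cells (0.63) and in resting cells (0.50). That fit holds 1 library labelled WT, the lowest one, and takes its spread from the 2 libraries labelled Irf5-/-, so the lone library is assumed to vary like them. Without the male library labelled WT it was 0.08 and 0.09 and was not called. It was also called in all kept cells thinned to 2000 UMIs (0.35, adjusted p = 0.0281) and in those with a T cell UMI (0.36, adjusted p = 0.0471), and in Il12rb2-positive cells with library size only (0.40, adjusted p = 0.00688), with adjusted p from 0.0245 to 1.00 over all alternatives in all kept cells. The male library labelled WT had the lowest level of all 8 members in all kept, resting, other and Egr3-high cells, and of 5 of 8 in Il12rb2-positive cells. It was also the deepest, with a median of 9661 UMIs per cell, and its free RNA had the lowest GTPase sum (1471 CPM). The part of these in the levels was not tested.

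Gbp5 in Il12rb2-positive cells was the member nearest to a class-specific difference. It held 340.2 and 332 CPM in the libraries labelled Irf5-/- and 439.5 and 385 CPM in those labelled WT, without overlap (-0.37 ± 0.11, adjusted p = 0.0977). In Egr3-high cells the order was the reverse, 259 and 190.2 CPM against 171 and 149.7 CPM (0.39 ± 0.16, adjusted p = 0.895). The test of whether the genotype difference itself differs from that in resting cells called no member: for Gbp5 in Il12rb2-positive cells it gave -0.41 ± 0.13 (adjusted p = 0.926) and in Egr3-high cells 0.36 ± 0.15 (adjusted p = 1.00). These tests called 0.0122% and 0% of 8208 genes, and at an unadjusted p under 0.05 stood 388 and 384 genes, with Gbp5 the only member in each.

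**Figure D5:**
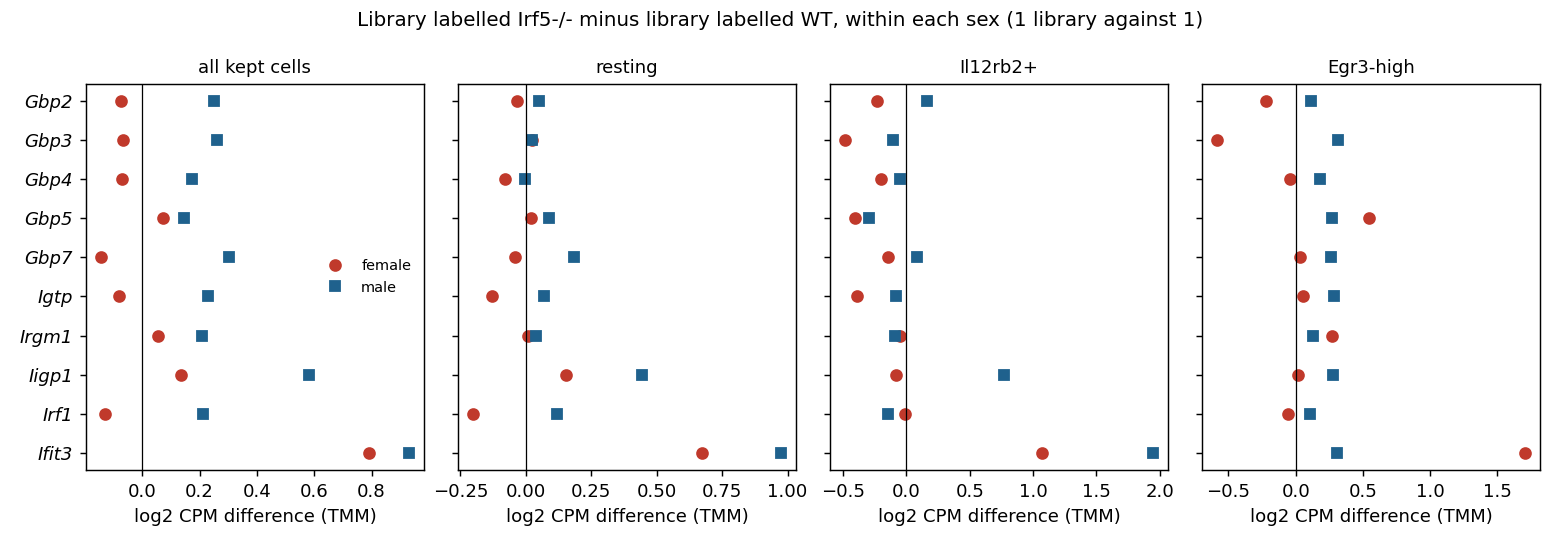
Difference in TMM-scaled log2 CPM (prior count 2) of the library labelled Irf5-/- minus the library labelled WT within each sex, for the 8 GTPases, Irf1 and Ifit3, with 1 library against 1 and no error. In all kept cells 5 GTPases lie below 0 in the female and above 0 in the male libraries, and Ifit3 lies above 0 in both.

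Among the further immunity GTPases, 2 of 13 tested were called between the labels in all kept cells, beside 1.21% of all genes, which is also the background of the counts that follow. F830016B08Rik was higher in the libraries labelled Irf5-/- by 1.32 ± 0.22 (adjusted p = 0.00785) and Gm4951 by 0.97 ± 0.21 (adjusted p = 0.0346), at mean levels of 3.66 and 6.46 CPM. Both lie on the same chromosome and strand as Iigp1. Of 40 type I response genes 7 were called, all higher, among them Isg15 (0.62 ± 0.10), Usp18 (0.87 ± 0.15) and Irf7 (0.58 ± 0.12). Of 31 interferon gamma pathway genes, counted without Ifng (0.50 ± 0.37, adjusted p = 0.883), 2 were called, both lower: Serpina3g, a serine protease inhibitor (-0.87 ± 0.15), and Cxcl10, a chemokine (-0.45 ± 0.08). The medians were 0.09 over the members, 0.24 over the type I genes and 0.04 over the interferon gamma pathway. In simulated data with dispersions that differed by gene, 14.8% and 9.7% of calls in this comparison were false. The simulated log2 changes were 0.5 and 1. Far fewer genes were called with no sex term, as given further on.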

How the data were processed

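UMI counts per gene and barcode were deposited by the authors as raw matrices of all barcodes, with no normalization. The submitters' processing notes name Cell Ranger 6.0.2 and mm10, while the file headers name Cell Ranger 4; the chemistry was 10x 3′ v3.1 per the labels. Cells with at least 2000 UMIs, at least 500 genes and at most 10% mitochondrial UMIs were kept, and possible doublets were kept too (removing the highest scrublet scores, at 0.8% per 1000 cells, was an alternative, because the automatic threshold marked 0.0486% to 2.05%). Classes and Irf1 or Ifit3 status were set on cells thinned once to 2000 UMIs, and levels and tests used all UMIs of the cells. Status sums under 20 cells were left out.

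UMIs were summed per library and class, so the library was the unit. Tests were edgeR 4.0.16 quasi-likelihood fits in R 4.3.3 with TMM factors and filterByExpr. The genotype fits held 4 libraries with sex as a covariate, and the class and status fits held library as a block. SE is the log2 fold change divided by the square root of F. DESeq2 1.42.0 was an alternative. These fits were tested on simulated data, where false calls in the genotype comparison ran above the nominal share once dispersions differed by gene. Promoter windows were from RefSeq, and 32158 of 32285 gene identifiers matched GENCODE M21.

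Named genes are the 8 members, Irf1 and Ifit3, Irf5 as the check, class genes, up to 4 genes per pathway list with the smallest p, every tested immunity GTPase and the 8 most similar profiles. Members and lists were chosen with earlier results of these data known. The fits with other cells, the bins of activation UMIs and the combined Irf1 and Ifit3 groups were chosen after seeing the data. A few genes that the rule names are not reported here.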

Additional observations from a re-analysis of the deposited data

Results flagged for a closer look

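The genotype difference had opposite signs by sex for 5 members in all kept cells. The share of all genes with opposite signs was not counted, so these counts of members have no background beside them. The male library labelled WT was the lowest for all 8 members there, so the members are not separate observations. The value of the library labelled Irf5-/- minus the library labelled WT was -0.07 (female) and 0.25 (male) for Gbp2, -0.07 and 0.26 for Gbp3, -0.07 and 0.17 for Gbp4, -0.14 and 0.30 for Gbp7, and -0.08 and 0.23 for Igtp, as log2 CPM after TMM scaling. Male minus female, the gaps were 0.323 for Gbp2, 0.327 for Gbp3, 0.242 for Gbp4, 0.446 for Gbp7 and 0.311 for Igtp. Each is 1 library against 1, so the difference between the sexes was not tested. Opposite signs also held for 3 members each in resting, Il12rb2-positive and Egr3-high cells and for 5 in other cells. In Il12rb2-positive cells the difference was above 0 for 0 of 8 members between the female and for 3 between the male libraries.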

How the results depend on the processing

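Of 1112 repeats of a member's log2 fold change under another setting, 1062 kept their side of the threshold and, where called, their direction. A change of sign with a call in neither fit was counted as kept. The class limits and the scale moved the most. With UMIs counted per cell, Il12rb2-positive against resting cells gave 0.11 for Gbp2 and 0.51 for Gbp5, Egr3-high against resting cells 0.19 for Gbp2, and Egr3-high against Il12rb2-positive cells 5 called members instead of 8. With classes from all UMIs, Egr3-high against resting cells called 8 members instead of 5 (Gbp4 -0.53, Gbp7 -0.40, Irgm1 -0.57), and Egr3-high against Il12rb2-positive cells called 4 (Gbp2 -0.064, Igtp -0.073). With Egr3-high at 1 UMI, the first called 8 (Gbp4 -0.44, Gbp7 -0.26, Irgm1 -0.41), and in the second Gbp2 stood at -0.20, Gbp3 at -0.083, Igtp at -0.21 and Iigp1 at -0.026. The counts of members under these class rules have no share of all genes beside them, and the cause of the shifts was not tested. With library size only, the median of all genes moved to -0.17, -0.18 and -0.13 in the contrasts of Egr3-high against resting, Il12rb2-positive and other cells, and counts of called members there were 7, 7 and 8.

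Replicates 1 and 2 are the female and male libraries, named by the genotype on their labels. Every genotype fit without a library also had no sex term and left 1 library with that label. Genotype called 1 member instead of 0 in all kept cells without WT replicate 1 and no sex term, at 2000 UMIs per cell and with T cell UMIs only, each time Iigp1; 1 in resting cells without WT replicate 1; and 1 in Il12rb2-positive cells with library size only. Leaving out a library in turn gave 0 to 1 called members in all kept and in resting cells, 7 in Il12rb2-positive against resting cells, 5 to 6 in Egr3-high against resting cells, and 5 to 6 with Ifit3 in resting cells. Without a replicate block (no library term), the 3 class contrasts called 7, 5 and 7 members. In the genotype fits sex is also the replicate block, since each label has 1 female and 1 male library; with no sex term 0 members were called in each of the 4 sets.

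Counts of genes called over all genes moved by over 1.5 times with 2000 UMIs per cell in the class contrasts (5431 to 3229, 5534 to 3377, 2498 to 1230), and per cell in Il12rb2-positive against other cells (2319 to 3481). In genotype they ran from 7 with no sex term to 201 with T cell UMIs only in all kept cells (155), 3 (DESeq2) to 173 (without WT replicate 1) in resting (4), 0 (without WT replicate 1) to 63 in Il12rb2-positive (52) and 0 (DESeq2) to 124 (without WT replicate 1) in Egr3-high cells (6). They ran to 22 and 7 in the interaction tests without a filter on low counts (1 and 0), from 266 (without WT replicate 2) to 570 with Irf1 and from 359 (without Irf5_KO replicate 1) to 992 with Ifit3 in resting cells (545 and 658). In genotype, the fits without a replicate also had no sex term, so these moves changed both at once. The smallest class sum rests on 67 cells.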
